A study of Mus musculus with 18 samples.

Results

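The measurements compared medial tibial plateau cartilage of knees with destabilisation of the medial meniscus (DMM) with that of the unoperated knees of the same mice, 2 weeks after surgery. They comprised 3 DMM arrays and 3 contralateral arrays, 6 of the 18 arrays of a time course that also sampled 4 and 8 weeks, chosen by their labelled week and knee with every probe kept. The table held 22999 probes, of which 18998 were annotated to 1 gene, and these stood for 11499 genes. All arrays came from male C57BL/6J mice operated at 10 weeks of age, so that the 2-week tissue was taken at 12 weeks. In the DMM group the right knee was operated, and the control group was the left knee, which received no sham operation. Each array carried amplified RNA pooled from 8 knees and hybridised on Illumina mouse whole-genome bead arrays. A contralateral knee shares the circulation and the altered gait of an operated animal, and a pool of knees gives no measure of the spread between single mice.

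In DMM surgery the ligament that anchors the medial meniscus to the tibia is cut, the meniscus moves outwards, and the load on the medial tibial plateau changes. Articular cartilage has 1 resident cell type, the chondrocyte, which keeps up a matrix of collagen II and aggrecan and whose behaviour is set by secreted factors of the TGF-beta, BMP, Wnt, hedgehog and IGF families. Early after destabilisation chondrocytes are known to respond to the changed load before the matrix is visibly lost. Collagens, matrix metalloproteinases and muscle genes were left out of what follows, except where a level bears on another result.

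The tissue carried its label's genes. In the contralateral arrays Comp, a cartilage matrix protein, averaged 13.05 ± 0.05 (SD, n = 3) on the log2 intensity scale, Col2a1 12.20 ± 0.14, Sox9, the defining transcription factor of chondrocytes, 12.06 ± 0.13, and Acan 11.65 ± 0.15, in arrays whose values ran from 4.62 to 14.67 with medians of 6.55 to 6.56. Brightness of different probes is not a ranking of expression, but all 4 lay far above the median. None of the 4 was called different after DMM (log2 fold changes 0.17, 0.45, -0.15 and -0.33).

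Markers of other tissues moved with the groups. Over a list of 24 fibroblast and synovium genes the mean level was 8.61, 7.98 and 8.39 in contralateral replicates 1 to 3 and 9.18, 9.37 and 9.25 in the DMM arrays, and 16 members were higher and 1 (Gsn) lower. For 31 contractile muscle genes the levels were 7.14, 7.61 and 7.16 against 6.15, 6.49 and 6.17, with 16 members lower and 1 (Flnc) higher. For 15 adipocyte genes they were 7.53, 8.79 and 6.88 against 6.70, 6.80 and 6.60, with 3 members lower. Without DMM replicate 2 or 3 the fibroblast count was 6 and 9, and the adipocyte count was 0 without contralateral replicate 1 or any 1 DMM array and 9 without contralateral replicate 3, while the muscle count stayed between 13 and 18. Contralateral replicate 2 had the highest fat and muscle levels and the lowest fibroblast level of the 6 arrays. It also lay farthest from the others: the root mean square log2 difference between 2 arrays was 0.233 to 0.263 within the DMM group, 0.391 to 0.398 between contralateral replicate 2 and its group, and 0.295 between contralateral replicates 1 and 3. In a pool of tissue, a change in the number of cells of a type and a change of RNA per cell cannot be told apart. The part of these tissues in the gene results was not tested.

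**Figure D1:**
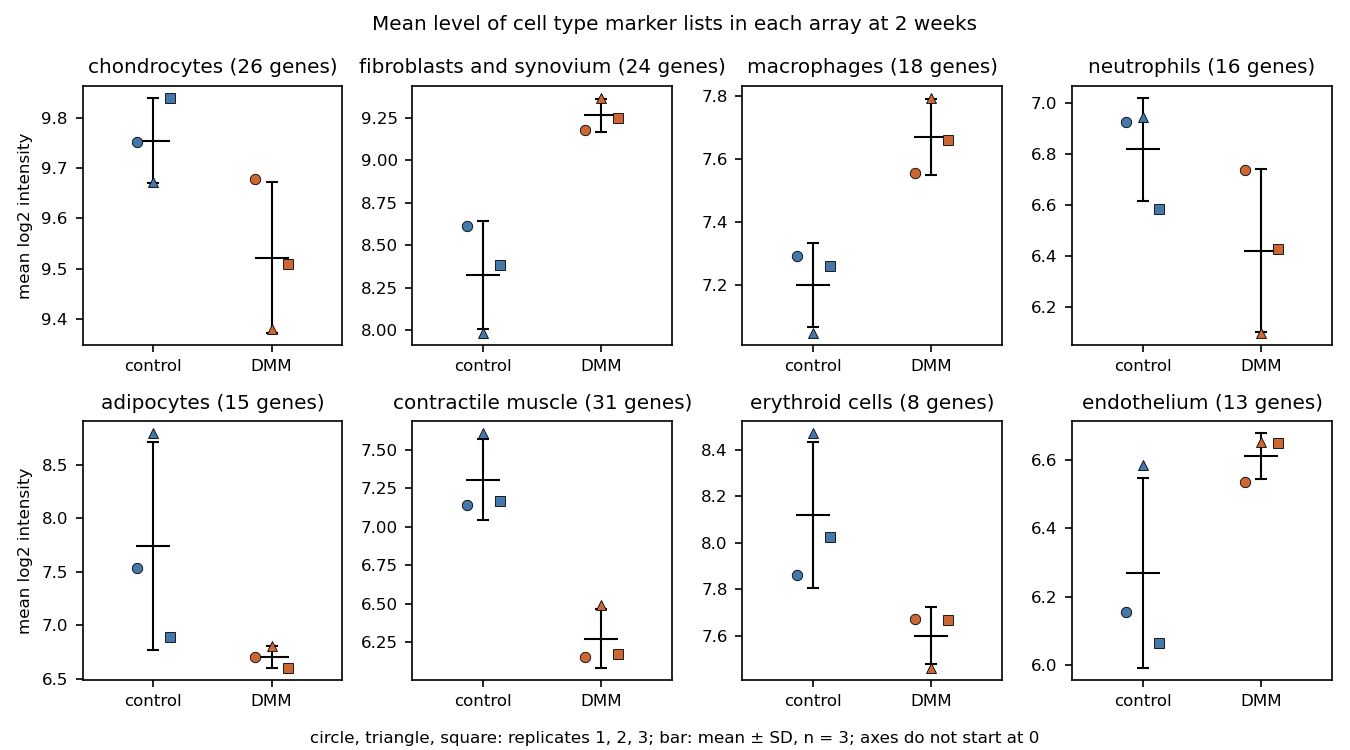
Mean log2 intensity of 8 cell type marker lists in each of the 6 arrays at 2 weeks, with the group mean ± SD (n = 3). Control stands for the contralateral knee. Fibroblast and macrophage markers were higher in all 3 DMM arrays than in all 3 contralateral arrays, muscle, adipocyte and erythroid markers lower, and contralateral replicate 2 (triangle) held the highest adipocyte level, 8.79.

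Of the 22999 probes, 1525 passed a Benjamini-Hochberg adjusted p of 0.05 in limma, 6.63% of those tested, with 765 higher and 760 lower after DMM. Read by the brightest probe of each gene, 468 genes rose (4.07% of 11499) and 363 fell (3.16%). The median log2 fold change over all genes was 0.01. Among called genes the median was 0.79 for those that rose and -0.76 for those that fell, and 132 rose and 83 fell by more than 1. In all 831 called genes the 3 DMM arrays lay on one side of the 3 contralateral arrays, so the groups did not overlap for any gene said below to have risen or fallen; such separation was seen upwards in 15.5% and downwards in 12.3% of all genes. The number of calls depended on each DMM array: 724 probes passed without DMM replicate 1, 390 without replicate 2 and 424 without replicate 3, against 1196 to 1574 when a contralateral array was left out. Counts in the gene lists are to be read beside 4.07% risen and 3.16% fallen over all genes. The lists and their members were chosen with earlier results of these data known, so their shares are descriptions and not tests. Below, a log2 fold change is DMM minus contralateral with its standard error (SE), and p-values are adjusted over all probes.

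Chondrocyte markers fell more often than they rose, and hypertrophic markers rose in part, with a median close to that of all genes. Of 26 chondrocyte markers measured, 6 fell (Cytl1, Ucma, Cilp, Chad, Wif1 and Frzb) and 2 rose (Col9a1 and Chil1), 23.1% and 7.69% against 3.16% and 4.07% of all genes. Cytl1, a small secreted factor abundant in cartilage, was at 12.13, 12.34 and 12.39 in the contralateral arrays and at 10.86, 10.74 and 10.90 in the DMM arrays, a change of -1.45 ± 0.13 (adjusted p = 0.000487) seen with both of its probes. Ucma, a vitamin K-dependent matrix protein of the upper growth plate and articular cartilage, fell from 10.73, 10.79 and 10.56 to 9.41, 9.13 and 9.18, a change of -1.45 ± 0.14 (adjusted p = 0.000613). Both genes had tight groups, with the gap between the groups several times the range within each. Cilp, a matrix protein of the middle zone, changed by -0.98 ± 0.14 (adjusted p = 0.00412). Chil1, a secreted chitinase-like protein, was at 8.85, 8.31 and 8.81 against 10.18, 9.17 and 9.85, a rise of 1.07 ± 0.24 (adjusted p = 0.0244). Panx3, a membrane channel of prehypertrophic cartilage and bone cells, had the largest rise of the 32 junction genes: it was at 6.57, 6.17 and 6.86 in the contralateral arrays and at 8.67, 8.0 and 8.24 in the DMM arrays (1.77 ± 0.21, adjusted p = 0.00162). Pth1r, the receptor through which PTHrP restrains hypertrophy, rose by 1.03 ± 0.19 (adjusted p = 0.0108), with 1 of its 3 probes called. In contrast, Col10a1, the defining collagen of hypertrophy, was at 11.15 ± 0.22 and 10.75 ± 0.22 (SD, n = 3; adjusted p = 0.181), and 7 of the 10 hypertrophic markers measured were not called, the third rise being Mmp13. Of these 10, 3 thus rose (30.0%) and none was called lower, against 4.07% and 3.16% of all genes. Their median was 0.03, 5 were positive, and 1 rise passed without DMM replicate 1 or 3. The falls of Cytl1, Ucma and Cilp and the rise of Panx3 passed with each array left out in turn. Those of Chad, Wif1 and Frzb did not pass without DMM replicate 2 or 3, which left 3 falls in the list, that of Chil1 without DMM replicate 1 or 3 and that of Pth1r without DMM replicate 1 or 3.

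Of the bone mineralisation and phosphate genes, 5 of 17 fell (29.4%, against 3.16% of all genes) and none rose (2 were higher at an unadjusted p below 0.05). Sost, whose product sclerostin blocks Wnt signalling and is best known from osteocytes, was at 7.81, 8.73 and 8.22 in the contralateral arrays and 6.83, 7.0 and 7.10 in the DMM arrays, a change of -1.28 ± 0.20 (adjusted p = 0.00592). Tnfrsf11b, which encodes the osteoclast inhibitor osteoprotegerin, went from 9.08, 9.24 and 9.37 to 8.43, 8.05 and 8.29 (-0.98 ± 0.15, adjusted p = 0.00446). The phosphate transporter gene Slc20a1 changed by -0.91 ± 0.14 (adjusted p = 0.00431). The other members called were Omd and Car2. All 17 genes also belong to other lists. Tnfrsf11b, Sost and Slc20a1 passed with each array left out; 3 members passed without DMM replicate 2.

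In the BMP and TGF-beta system members of each kind, antagonists, ligands, receptors and targets, were called. Grem1, a secreted BMP antagonist of articular cartilage, had the lowest adjusted p of all genes by their brightest probe: it was at 10.52, 10.17 and 10.46 in the contralateral arrays and at 8.11, 7.71 and 7.57 after DMM, a fall of -2.59 ± 0.17 (adjusted p = 0.000147). This was the largest fall among genes outside the muscle lists. Chrdl2, a second secreted antagonist, fell from 7.81, 8.05 and 8.08 to 7.21, 6.51 and 6.26 (-1.32 ± 0.21, adjusted p = 0.00618). Nbl1, of the same antagonist family as Grem1, went the other way, from 8.17, 7.38 and 7.96 to 9.18, 9.28 and 9.44 (1.47 ± 0.19, adjusted p = 0.00276). Antagonists of 1 pathway thus moved in opposite directions in the same arrays. Of 15 ligands, Bmp5 and Bmp6 fell and Bmp4, Tgfb2 and Tgfb3 rose. Bmp5 was at 7.97, 8.01 and 7.56 in the contralateral arrays and 6.46, 6.45 and 6.37 in the DMM arrays (-1.42 ± 0.15, adjusted p = 0.00102). Tgfb3 was at 6.78, 6.27 and 7.11 in the contralateral arrays and 7.66, 7.83 and 7.63 in the DMM arrays (0.99 ± 0.19, adjusted p = 0.0135). Bmp4 changed by 0.74 ± 0.16 (adjusted p = 0.0197), Tgfb2 by 0.61 ± 0.13 (adjusted p = 0.019) and Bmp6 by -0.66 ± 0.15 (adjusted p = 0.0242), whereas Tgfb1 and Bmp2 were not called (-0.17 and 0.09). Among 27 receptors, latency proteins and antagonists, Acvrl1, Ltbp1 and Ltbp4 rose and the co-receptor gene Tgfbr3 fell, at -0.70 ± 0.16 (adjusted p = 0.0253). Of 20 SMAD pathway and target genes, Tgfbi and Pmepa1, both known TGF-beta targets, rose by 1.45 ± 0.24 and 0.98 ± 0.15 (adjusted p = 0.00651 and 0.00474), and Id4, of a family known as BMP targets, fell, at -1.06 ± 0.14 (adjusted p = 0.00295). Of these 20, 10.0% rose and 5.0% fell, against 4.07% and 3.16% of all genes, and their median was 0.04. Grem1, Chrdl2, Bmp5, Nbl1, Tgfbi, Pmepa1 and Id4 passed with each array left out, though the dimmer probe of Pmepa1 was not called (-0.08 ± 0.14, adjusted p = 0.786). The rises of Bmp4, Tgfb2 and Tgfb3 did not pass without DMM replicate 2 or 3, which left no ligand that rose, and Bmp6 did not pass without contralateral replicate 3 or any 1 DMM array. Bmp4 and Tgfb2 also failed without DMM replicate 1, and Tgfbr3 failed without any array other than contralateral replicate 2. The list of receptors and antagonists held 1 rise, Nbl1, without DMM replicate 2 or 3, and Ltbp4 failed without contralateral replicate 1 or 3 and Ltbp1 without DMM replicate 1 as well.

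Wnt modulators split by member. Of 36 Wnt ligands, receptors and modulators, 4 rose and 4 fell, 11.1% each, with a list median of 0.09. Lgr6, a receptor of the R-spondins that amplify Wnt signals, was at 9.34, 9.13 and 9.35 and fell to 8.22, 7.86 and 7.89 (-1.28 ± 0.15, adjusted p = 0.00135), and 3 of its 4 probes were called. The secreted inhibitors of the frizzled-related family went both ways. Sfrp2 rose from 7.36, 7.22 and 7.72 to 8.57, 9.01 and 9.17 (1.48 ± 0.18, adjusted p = 0.00215) and Sfrp4 by 1.16 ± 0.23 (adjusted p = 0.0146). Sfrp5 fell, at -1.09 ± 0.21 (adjusted p = 0.0136) and Frzb at -0.60 ± 0.13 (adjusted p = 0.0235). Another secreted inhibitor, Wif1, fell, at -0.72 ± 0.13 (adjusted p = 0.0106), and Dkk3, of the dickkopf family, rose from 8.69, 7.80 and 8.57 to 9.60, 9.66 and 9.45 (1.22 ± 0.21, adjusted p = 0.00795). Sfrp2, Sfrp4 and Dkk3 were each lowest in contralateral replicate 2, the array with the lowest fibroblast level. The last called member, Kremen1, a receptor of the dickkopf proteins, rose by 0.69 ± 0.13 (adjusted p = 0.0127), and was not called when the 18 arrays were fitted together or when DMM replicate 1 or 3 was dropped. Of the CCN family, matricellular proteins with growth factor binding domains, Ccn5 rose by 1.77 ± 0.39 (adjusted p = 0.0223), Ccn4 by 0.73 ± 0.13 (adjusted p = 0.0106) and Ccn3 by 0.71 ± 0.14 (adjusted p = 0.0155). For Ccn2, the most studied member in cartilage, the brightest probe was not called (-0.27 ± 0.14, adjusted p = 0.309) and its other probe was called lower (-0.58 ± 0.14, adjusted p = 0.0294). Ccn1 was not called by any of its 3 probes (0.21 ± 0.14, adjusted p = 0.431, for the brightest). Lgr6 and Sfrp2 passed with each array left out; Sfrp4, Sfrp5, Frzb, Wif1, Ccn3, Ccn4 and Ccn5 did not pass without DMM replicate 2 or 3, and Dkk3 did not without DMM replicate 2. The Wnt list then held 2 rises and 1 fall without either of these arrays, and the CCN list no rise.

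Hedgehog pathway genes fell more often than they rose. Of 14 hedgehog and PTHrP pathway genes, 5 fell (35.7%, against 3.16% of all genes) and only Pth1r, the PTHrP receptor gene, rose. Gas1, a hedgehog co-receptor, was at 10.61, 10.33 and 10.46 in the contralateral arrays and 9.37, 9.68 and 9.40 in the DMM arrays (-0.98 ± 0.14, adjusted p = 0.00393). Smo, the signal transducer, went from 7.81, 7.33 and 7.70 to 6.47, 6.82 and 6.89 (-0.88 ± 0.17, adjusted p = 0.0124), although only 1 of its 4 probes was called. Ptch1 and Gli1, a receptor and a transcription factor whose transcription is itself raised by hedgehog signals, fell, at -0.69 ± 0.15 and -0.64 ± 0.15 (adjusted p = 0.0239 and 0.0296). Boc, a second co-receptor, in the list as written and picked out for naming after its values were seen, fell, at -0.62 ± 0.16 (adjusted p = 0.0471), and the ligand gene Ihh was not called (-0.18 ± 0.15, adjusted p = 0.524). The changes were small next to those of Grem1 or Bmp5 and close to the threshold: Gas1 passed with each array left out, but the list held 1 fall without DMM replicate 2, 2 without DMM replicate 1 or 3 and 3 without contralateral replicate 1. Smo failed without DMM replicate 1 or 2, Ptch1 without contralateral replicate 3 or DMM replicate 2 or 3, and Gli1 without contralateral replicate 1 or any 1 DMM array.

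In the IGF axis several members rose and none fell. Of 16 genes measured, 6 rose (37.5%, against 4.07% of all genes), 2 were lower at an unadjusted p below 0.05, the median was 0.40, and the count stayed between 4 and 6 with each array left out. Igf1, the main anabolic growth factor for cartilage matrix, was at 9.92, 9.36 and 9.18 in the contralateral arrays and 10.86, 11.27 and 10.86 in the DMM arrays (1.51 ± 0.20, adjusted p = 0.00276), with both probes called. Igfbp4, which binds IGFs and limits their access to the receptor, went from 8.78, 7.86 and 8.08 to 9.63, 10.33 and 9.81 (1.69 ± 0.24, adjusted p = 0.00386). Igfbp6 rose by 1.19 ± 0.15 (adjusted p = 0.00254), Igfbp3, a list member picked out for naming after its values were seen, by 0.72 ± 0.15 (adjusted p = 0.0175) and Igf2r, a receptor that clears IGF-II, by 0.89 ± 0.17 (adjusted p = 0.0113). Socs2, a feedback inhibitor of growth hormone signalling, rose by 1.04 ± 0.17 (adjusted p = 0.00655). Igf2r did not pass without DMM replicate 2 or 3. The ligand rose together with several binding proteins, while the receptor gene Igf1r was not called (-0.34 ± 0.13, adjusted p = 0.147). Of 30 genes of other growth factor families 7 rose (23.3%, against 4.07% of all genes) and none fell. Ptn, pleiotrophin, a heparin-binding growth factor of developing cartilage, was at 7.0, 5.59 and 7.18 in the contralateral arrays and 7.93, 8.68 and 8.59 in the DMM arrays (1.81 ± 0.35, adjusted p = 0.0137), and contralateral replicate 2 stood well below the others. Its relative Mdk rose by 0.82 ± 0.18 (adjusted p = 0.0228) and Angptl1 by 1.65 ± 0.24 (adjusted p = 0.00427). The count of 7 dropped to 1, Angptl1, without DMM replicate 2 or 3, and Mdk also failed without contralateral replicate 1. Fgf2 was the 1 gene of 19 in the FGF list to be called (5.26% fallen, against 3.16% over all genes). Its change was -0.79 ± 0.16 (adjusted p = 0.0159), and it did not pass without DMM replicate 1 or 2.

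**Figure D2:**
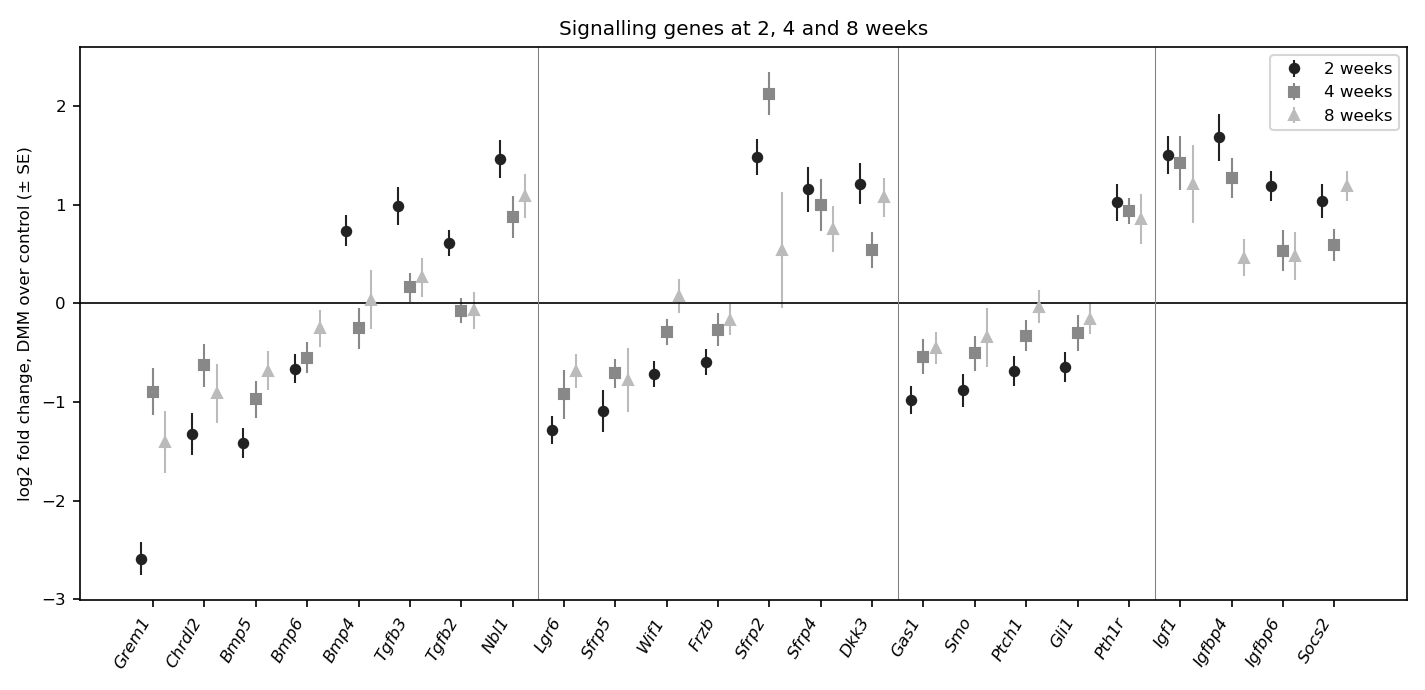
Log2 fold change of DMM over contralateral cartilage ± SE for signalling genes (BMP and TGF-beta, Wnt, hedgehog and PTHrP, and IGF, from left to right) at 2, 4 and 8 weeks, 3 arrays a group. Grem1 lay at -2.59 at 2 weeks and at -0.90 and -1.41 later, while Igf1 lay at 1.51, 1.43 and 1.22.

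Heparan sulfate is a chain of sulfated sugars on cell surface and matrix proteoglycans, and the enzymes that sulfate it set which growth factors it holds. Of 46 genes of hyaluronan and glycosaminoglycan synthesis, 5 rose and 5 fell (10.9% each, against 4.07% and 3.16% of all genes). The falls were led by Hs3st3a1 and Hs3st3b1, paralogs that lie near each other on chromosome 11 and encode the enzymes adding the rare 3-O-sulfate. Hs3st3a1 was at 8.95, 8.66 and 9.05 in the contralateral arrays and 7.34, 7.12 and 7.02 in the DMM arrays (-1.73 ± 0.15, adjusted p = 0.000367). Hs3st3b1 was at 9.91, 9.86 and 10.15 in the contralateral arrays and 8.59, 8.49 and 8.63 in the DMM arrays (-1.40 ± 0.13, adjusted p = 0.000646), with 3 of its 4 probes called. Both passed with every array left out, and both lay lower in all 3 DMM arrays by more than 1. The opposite direction was taken by Ext1, which builds the chain (0.75 ± 0.19, adjusted p = 0.0405), Hs2st1, which adds the 2-O-sulfate (0.99 ± 0.23, adjusted p = 0.0299), Sulf2, which removes 6-O-sulfate outside the cell (0.68 ± 0.17, adjusted p = 0.04), and Has1, a hyaluronan synthase (0.85 ± 0.23, adjusted p = 0.0471). Those 4 rises did not hold: without any 1 of the DMM arrays no gene of the list was called higher, without contralateral replicate 3 only 1 was and without contralateral replicate 2 only 3 were. For chondroitin sulfate, Csgalnact2, which starts and extends the chain, fell from 9.48, 9.61 and 9.45 to 8.52, 8.34 and 8.33 (-1.12 ± 0.13, adjusted p = 0.00162), and Chst3, a 6-O-sulfotransferase, at -0.73 ± 0.14 (adjusted p = 0.0108), the latter not passing without DMM replicate 2 or 3, where the list held 3 falls. Among the core proteins that carry heparan sulfate, Sdc1 rose from 6.05, 6.08 and 6.04 to 7.16, 7.44 and 7.29 (1.24 ± 0.13, adjusted p = 0.001), Gpc1 rose by 0.80 ± 0.15 (adjusted p = 0.0108) and Sdc4, the main syndecan of cartilage, fell from 10.55, 10.58 and 10.59 to 9.94, 9.75 and 9.79 (-0.74 ± 0.13, adjusted p = 0.00726). Sdc1 passed with every array left out, whereas Gpc1 did not pass without any 1 DMM array and Sdc4 did not without DMM replicate 2.

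The promoters of the 2 paralogs that fell together are shown because both falls passed with every array left out. Each sequence is the 250 bases before the RefSeq start (build GRCm38.p6), read 5′ to 3′ on the gene's strand, with GGGCGG or its reverse complement CCGCCC, the GC box read by Sp factors, in capitals. Hs3st3a1 lies at chr11:64435082-64435331 on the plus strand and Hs3st3b1 at chr11:63922285-63922534 on the minus strand.
Hs3st3a1: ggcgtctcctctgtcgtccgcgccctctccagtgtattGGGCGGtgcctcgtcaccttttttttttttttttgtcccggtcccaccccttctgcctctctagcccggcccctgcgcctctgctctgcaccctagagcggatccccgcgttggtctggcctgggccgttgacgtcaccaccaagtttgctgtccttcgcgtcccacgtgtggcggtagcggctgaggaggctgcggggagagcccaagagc
Hs3st3b1: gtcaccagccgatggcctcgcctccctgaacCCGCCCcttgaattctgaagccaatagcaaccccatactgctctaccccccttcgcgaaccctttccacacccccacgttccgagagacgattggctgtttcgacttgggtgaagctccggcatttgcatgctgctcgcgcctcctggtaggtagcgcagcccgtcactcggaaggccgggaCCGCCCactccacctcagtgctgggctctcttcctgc
The box occurred once in the first and at 2 places in the second, and in 32.7% of all 32851 promoter windows of this length. The windows were 64% and 62.4% G and C, against a mean of 53.2% over all windows.

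Genes of the hypoxia response were lower on balance. Adult cartilage has no vessels, and its cells live at low oxygen with the hypoxia-inducible factors active. Of 37 hypoxia and glycolysis genes, 5 fell (13.5%) and 1 rose (2.70%), 6 had a positive log2 fold change, and the median was -0.31 against 0.01 for all genes. The mean level of the list was 8.31, 8.36 and 8.38 in the contralateral arrays and 8.19, 7.93 and 8.02 in the DMM arrays, which do not overlap. Egln3, an oxygen sensor whose own transcription rises under hypoxia, was at 8.38, 8.11 and 8.46 in the contralateral arrays and 7.67, 6.77 and 7.48 in the DMM arrays (-1.01 ± 0.21, adjusted p = 0.0194). Stc2, a secreted glycoprotein, went from 10.09, 9.85 and 10.10 to 9.26, 8.82 and 9.04 (-0.98 ± 0.15, adjusted p = 0.00522), while its paralog Stc1 rose by 0.72 ± 0.13 (adjusted p = 0.0107). Epas1 and Arnt, which encode HIF-2 alpha and its partner, fell, at -0.62 ± 0.16 and -0.78 ± 0.19 (adjusted p = 0.0403 and 0.0319), and Ndrg1, a hypoxia-inducible gene, at -0.73 ± 0.16 (adjusted p = 0.0258). Hif1a (-0.11 ± 0.13, adjusted p = 0.691) and Vegfa (-0.25 ± 0.16, adjusted p = 0.409) did not pass. Stc2 passed with each array left out. The list held 2 falls without DMM replicate 3 or without contralateral replicate 1 or 3, and 1, Stc2, without DMM replicate 2. Egln3 failed in each of these 4 settings, Ndrg1 without contralateral replicate 1 or 3 or DMM replicate 1 or 2, and Arnt, called by 1 of its 5 probes, without contralateral replicate 1 or any 1 DMM array. Epas1 passed only with all 6 arrays or without contralateral replicate 1. Stc1 did not pass without DMM replicate 3. Ppp1r3c, which targets a phosphatase to glycogen and favours glycogen storage, fell from 10.98, 10.98 and 11.41 to 9.85, 9.42 and 9.68 (-1.47 ± 0.17, adjusted p = 0.00132) and passed with every array left out. Mgarp, a mitochondrial protein named for its regulation by hypoxia, fell from 9.31, 9.31 and 9.45 to 8.51, 7.51 and 7.94 (-1.37 ± 0.21, adjusted p = 0.00536), also with every array left out.

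The promoter of Egln3 is shown since, among the fallen genes of this list with a window, only it held ACGTG, in capitals. The window is the 250 bases before the RefSeq start (chr12:54203875-54204124, minus strand, GRCm38.p6). ACGTG is a form of the core of the hypoxia response element. The other form, GCGTG, was not searched for, and it occurs in the windows of Stc2 and Arnt. Windows were matched for Egln3, Stc2 and Arnt of the 5 fallen genes, and no match to ACGTG or CACGT was found in those of Stc2 and Arnt. Of all 32851 windows 16.6% held it on either strand, and the match in Egln3 is a description of these letters only.
Egln3: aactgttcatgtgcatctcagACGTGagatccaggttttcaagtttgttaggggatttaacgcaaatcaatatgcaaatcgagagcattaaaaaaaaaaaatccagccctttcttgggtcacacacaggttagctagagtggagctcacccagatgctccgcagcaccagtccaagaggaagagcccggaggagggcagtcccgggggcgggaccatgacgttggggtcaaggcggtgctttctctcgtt

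Transcription factors of limb and joint patterning were among the rises. Of 71 skeletal and mesenchymal factors, 9 rose (12.7%) and 2 fell (2.82%). Barx2, a homeobox gene of chondrogenic condensations, was at 6.49, 6.0 and 5.68 in the contralateral arrays and at 7.69, 7.67 and 7.74 in the DMM arrays (1.65 ± 0.19, adjusted p = 0.00135). Osr2, which acts in joint formation, rose from 7.66, 7.19 and 7.29 to 8.64, 8.96 and 8.51 (1.32 ± 0.17, adjusted p = 0.00254). Pax9 rose by 0.99 ± 0.17 (adjusted p = 0.00818), and Prrx1, a marker of limb mesenchyme, by 0.77 ± 0.14 (adjusted p = 0.0104) with 4 of its 6 probes called. Erg, a factor of developing articular cartilage, fell from 8.41, 9.03 and 8.69 to 7.99, 7.74 and 7.81 (-0.86 ± 0.17, adjusted p = 0.0134), and Sox8, a relative of Sox9, at -0.55 ± 0.13 (adjusted p = 0.0331). Outside the list, Dmrta1 fell from 7.26, 7.67 and 7.44 to 6.12, 5.91 and 6.24 (-1.37 ± 0.15, adjusted p = 0.00131). Barx2, Osr2 and Dmrta1 passed with each array left out. Without DMM replicate 3 the list held 2 rises, without replicate 2 it held 3 and without replicate 1 it held 4, Pax9 and Erg failed without DMM replicate 2 or 3, Prrx1 without replicate 3, and Sox8 without any array except contralateral replicate 1.

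Among mechanosensitive genes, Piezo2 and Trpm7 moved apart. Piezo2, which encodes a stretch-gated ion channel of touch neurons also found in chondrocytes, was at 7.06, 6.50 and 6.86 in the contralateral arrays and 8.08, 8.40 and 8.24 in the DMM arrays (1.44 ± 0.17, adjusted p = 0.00155), with all 3 probes called and the call kept with every array left out. Trpm7, a channel with a kinase domain, was at 8.63, 8.86 and 8.17 in the contralateral arrays and 7.44, 7.44 and 7.74 in the DMM arrays (-1.01 ± 0.18, adjusted p = 0.00963), with 1 of 2 probes called. Tead1, a partner of YAP, rose by 0.68 ± 0.16 (adjusted p = 0.0306) and its cofactor gene Vgll3 by 0.58 ± 0.13 (adjusted p = 0.0269), while of the YAP targets Ccn1 was not called and Ccn2 was called lower by 1 of its 2 probes, as given above. Over the 21 genes of this list 3 rose (14.3%) and 2 fell (9.52%), against 4.07% and 3.16% of all genes, with a median of 0.03. The list held 1 rise without any 1 DMM array, no fall without DMM replicate 2 and 1 fall without replicate 3. Trpm7 did not pass without DMM replicate 2, and the rises of Tead1 and Vgll3 did not without any 1 DMM array, nor Tead1 without contralateral replicate 1 or Vgll3 without contralateral replicate 3.

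**Figure D3:**
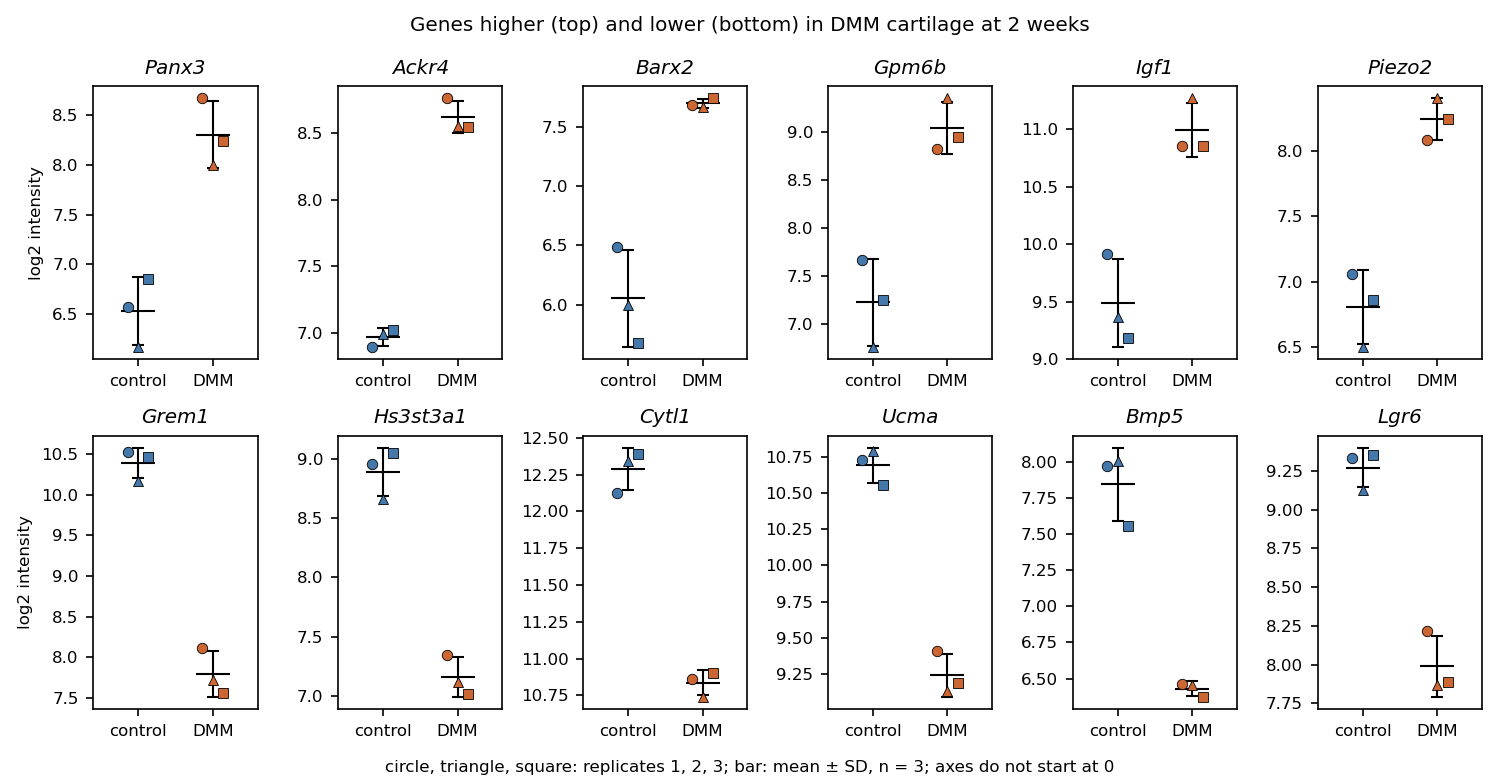
Log2 intensity of 12 genes in each array at 2 weeks with the group mean ± SD (n = 3). In every panel the 3 DMM arrays lay apart from the 3 contralateral arrays, with log2 fold changes of -1.28 for Lgr6 to -2.59 for Grem1 in the lower row and 1.44 for Piezo2 to 1.82 for Gpm6b in the upper row (control, contralateral).

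Cytoskeletal genes rose more often than they fell. Of 68 actin genes and regulators, 10 rose (14.7%) and 4 fell (5.88%), and 51 had a positive log2 fold change. Marcks, which links the membrane to actin, was at 10.21, 8.97 and 9.69 in the contralateral arrays and 10.82, 11.49 and 11.15 in the DMM arrays (1.53 ± 0.27, adjusted p = 0.00938). Fscn1, which bundles actin in cell protrusions, was at 7.62, 7.70 and 7.27 in the contralateral arrays and 9.08, 8.29 and 8.40 in the DMM arrays (1.06 ± 0.21, adjusted p = 0.0136). The falls held Scin, a gelsolin relative that severs actin (-1.11 ± 0.16, adjusted p = 0.00412), and Cyfip2, of the complex that starts branched filaments, which went from 8.92, 9.37 and 9.21 to 8.16, 7.71 and 8.13 (-1.17 ± 0.17, adjusted p = 0.00391) with both probes called. Among tubulins the isotypes split: Tubb6 rose by 0.83 ± 0.14 (adjusted p = 0.00748) and Tubb5 by 0.60 ± 0.12 (adjusted p = 0.0182), while Tubb2a and Tubb2b, a pair of near-identical copies that probes may not tell apart, fell, at -0.51 ± 0.12 and -0.64 ± 0.13 (adjusted p = 0.0353 and 0.0145). Lmna, the nuclear lamin of stiff tissues, rose by 0.78 ± 0.13 (adjusted p = 0.00605) and passed with every array left out, as did Fscn1, Scin and Cyfip2. Without DMM replicate 2 the actin list held 1 rise, without replicate 3 it held 3 and without replicate 1 it held 5, and it held 2 falls without any 1 DMM array. Marcks did not pass without DMM replicate 2, Tubb6 without replicate 3, and Tubb5, Tubb2a and Tubb2b without any 1 DMM array, nor Tubb2a without contralateral replicate 1 or 3.

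Matrix glycoproteins rose more often than they fell. Of 54 measured, 19 rose (35.2%) and 5 fell (9.26%), and the rises numbered 7 without DMM replicate 2 and 10 without DMM replicate 3, with 1 fall in either case. The falls include Matn2, counted by its brighter probe, although its probes were called in opposite directions. Spon2, a secreted spondin, rose by 2.12 ± 0.32 (adjusted p = 0.00431). Beyond that list, the small leucine-rich proteoglycan Kera rose by 2.48 ± 0.32 (adjusted p = 0.00276) and Lrrc15, a membrane protein of fibroblasts, by 2.58 ± 0.30 (adjusted p = 0.00164). Antxr1, a collagen-binding membrane protein, went from 8.86, 7.16 and 8.15 to 9.82, 10.08 and 9.85 (1.86 ± 0.32, adjusted p = 0.00819). Gpm6b, a tetraspan membrane protein, went from 7.67, 6.77 and 7.25 to 8.83, 9.35 and 8.95 (1.82 ± 0.22, adjusted p = 0.00183). P4ha3, a subunit of the enzyme that hydroxylates collagen prolines, rose from 6.15, 5.74 and 5.70 to 7.43, 7.61 and 7.29 (1.58 ± 0.16, adjusted p = 0.000871). In Antxr1 and Gpm6b contralateral replicate 2 was the lowest of the 6 arrays, as it was for the fibroblast list, and in P4ha3 replicate 1 was the highest of its group. Fndc1, a fibronectin-domain protein, rose by 1.75 ± 0.19 (adjusted p = 0.00131), Itgbl1, an integrin beta-like secreted protein, by 1.53 ± 0.23 (adjusted p = 0.00481), and Itga11, a collagen-binding integrin of fibroblasts, by 1.27 ± 0.15 (adjusted p = 0.00162). Over all 468 genes that rose, contralateral replicate 2 was the lowest array in 309 (66.0%), replicate 1 in 79 and replicate 3 in 80, and over the 363 that fell it was the highest in 191 (52.6%), replicate 1 in 94 and replicate 3 in 78. Spon2, Kera, Lrrc15, Gpm6b, P4ha3, Fndc1, Itgbl1 and Itga11 passed with every array left out, and Antxr1 did not pass without DMM replicate 2.

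Innate immune genes rose in part, with no rise of neutrophil genes. Of 26 complement genes and relatives, 10 rose (38.5%) and 1 fell (3.85%). The largest were not complement components but C1q-like secreted hormones: C1qtnf3, a cartilage and fat product, was at 7.60, 6.04 and 5.90 in the contralateral arrays and 8.36, 9.03 and 8.28 in the DMM arrays (2.04 ± 0.38, adjusted p = 0.0107), C1qtnf5 rose by 1.33 ± 0.17 (adjusted p = 0.00215) and C1qtnf1 by 1.27 ± 0.16 (adjusted p = 0.00215). Of the cascade itself, C1qb, of the recognition molecule C1q, rose from 7.55, 7.34 and 7.60 to 8.23, 8.45 and 8.21 (0.80 ± 0.14, adjusted p = 0.00771), and C3ar1 and C5ar1, receptors of the released peptides, list members picked out for naming after their values were seen, by 0.75 ± 0.17 and 0.62 ± 0.16 (adjusted p = 0.0272 and 0.046), while C7 of the membrane attack complex fell, at -0.55 ± 0.14 (adjusted p = 0.042). C1q and these receptors are made by macrophages, whose 18 markers averaged 7.29, 7.05 and 7.26 in the contralateral arrays and 7.55, 7.79 and 7.66 in the DMM arrays, with 4 of 18 higher (1 without DMM replicate 2, 2 without DMM replicate 3). Adgre1, their defining surface protein, was at 8.0, 7.35 and 7.71 in the contralateral arrays and 8.58, 9.01 and 8.75 in the DMM arrays (1.09 ± 0.18, adjusted p = 0.00656) with all 3 probes called. All 16 neutrophil markers had a negative log2 fold change with none called in limma. At an unadjusted p below 0.05 there were 5, all lower, against 10% of all genes that were lower at that p. The mean levels of the markers were 6.92, 6.94 and 6.58 in the contralateral arrays and 6.74, 6.10 and 6.43 in the DMM arrays. C1qtnf1, C1qtnf5 and Adgre1 passed with every array left out; C1qtnf3 and C1qb did not pass without DMM replicate 2 and C7 did not without any 1 of the 6 arrays. The list held 3 rises without DMM replicate 2, 6 without DMM replicate 3 or contralateral replicate 3, and 8 or 10 otherwise.

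Ackr4, a decoy receptor that removes chemokines such as CCL19 and CCL21, was among the steadiest rises, at 6.90, 7.0 and 7.03 in the contralateral arrays and 8.76, 8.55 and 8.55 in the DMM arrays (1.64 ± 0.13, adjusted p = 0.000303), with 3 contralateral arrays that differed little and 2 of its 3 probes called. Of 22 chemokines and receptors Cxcl1 rose by 0.95 ± 0.15 (adjusted p = 0.0058) and Ccl9 by 0.69 ± 0.16 (adjusted p = 0.0297), which is 9.09% against 4.07% of all genes. Among 44 interleukin and TNF family genes, Il13ra1, a subunit of the IL-13 receptor, rose from 6.55, 5.46 and 6.50 to 7.32, 7.51 and 7.74 (1.35 ± 0.26, adjusted p = 0.0119), and Il33, an alarmin, by 0.73 ± 0.16 (adjusted p = 0.0253). Il6 was not called (0.15 ± 0.16, adjusted p = 0.646), with levels of 5.57 to 6.08 in the 6 arrays. Socs3, the feedback inhibitor of cytokine signalling through STAT3, rose from 6.67, 6.67 and 6.72 to 7.89, 7.63 and 7.47 (0.98 ± 0.14, adjusted p = 0.00393). Socs3, Cxcl1 and Ackr4 passed with every array left out, and Ccl9, Il13ra1 and Il33 did not without DMM replicate 2 or 3, nor Ccl9 without DMM replicate 1 or Il33 without contralateral replicate 1. In the interleukin list 9.09% rose and 4.55% fell, against 4.07% and 3.16% of all genes. Without DMM replicate 2 or 3 the interleukin list held no rise of the 4, and without contralateral replicate 3 it held 6. Of 26 interferon response genes Ifitm3 and Ifitm2 rose (0.76 ± 0.16 and 0.53 ± 0.13, adjusted p = 0.0182 and 0.0349) and Irgm1 and Xaf1 fell (-0.68 ± 0.16 and -0.58 ± 0.14, adjusted p = 0.0331 and 0.0282), 7.69% each way with a median of -0.04, and without DMM replicate 2 or 3 none of the list was called. Of the 13 genes of antigen presentation none was called in limma, with 4 at an unadjusted p below 0.05, all higher, against 12.8% of all genes that were higher at that p.

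Protease genes outside the metalloproteinases rose more often than they fell. Of 25 other secreted and surface proteases, 10 rose (40.0%) and 2 fell (8.0%). Ctsk, the collagen-degrading cathepsin of osteoclasts and fibroblasts, was at 7.50, 6.70 and 7.38 in the contralateral arrays and 8.69, 8.56 and 8.88 in the DMM arrays (1.52 ± 0.20, adjusted p = 0.00278). Anpep, an aminopeptidase, rose by 1.48 ± 0.26 (adjusted p = 0.00819) and Fap, a fibroblast surface protease, by 0.94 ± 0.13 (adjusted p = 0.00346). The falls were both carboxypeptidases: Cpm went from 8.47, 8.87 and 8.89 to 7.55, 7.11 and 7.63 (-1.32 ± 0.18, adjusted p = 0.00287) and Cpe from 10.49, 10.30 and 10.47 to 9.42, 9.21 and 9.55 (-1.02 ± 0.14, adjusted p = 0.0032). In the lysosome list 11 of 52 genes rose (21.2%) and 1 fell (1.92%), among them the cathepsins Ctsc (1.03 ± 0.14, adjusted p = 0.00295) and Ctsa (0.88 ± 0.16, adjusted p = 0.00897), and 45 of 52 had a positive log2 fold change. Of the 52 lysosome genes 9 also belong to other lists. Ctsk is counted in the protease list too, Igf2r in the IGF list and Laptm5 among the macrophage markers. The macrophage markers rose in the same arrays, and their part in the lysosome count was not tested. Ctsk, Fap, Cpm, Cpe and Ctsc passed with every array left out, and Anpep and Ctsa did not pass without DMM replicate 2. The dimmer probe of Fap was not called (0.06 ± 0.18, adjusted p = 0.887), and Fap did not pass with the mean of its probes. The protease count was 5 without DMM replicate 2 or 3, and the lysosome count 2, 3 and 5 without DMM replicates 2, 3 and 1. Of 19 coagulation and fibrinolysis genes 5 rose (26.3%) and 1 fell (5.26%), against 4.07% and 3.16% of all genes. F2r, the thrombin receptor, was at 7.27, 7.82 and 7.88 in the contralateral arrays and 8.64, 8.53 and 8.91 in the DMM arrays (1.03 ± 0.18, adjusted p = 0.00848). Thbd, thrombomodulin, was higher by 0.89 ± 0.15 (adjusted p = 0.00684). Thbd passed with every array left out, while F2r did not without DMM replicate 3, where the list held 3 rises.

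The lists of metabolism differed in their share of calls. Of 44 fatty acid and triglyceride genes 2 fell (Pck1 and Acsl5, 4.55%) and 1 rose (2.27%), with no fall without contralateral replicate 1 or any 1 DMM array and 9 without contralateral replicate 3. Of 19 genes of thyroid, retinoid and vitamin D metabolism 4 rose (21.1%) and 2 fell (10.5%). Among the single genes with the largest falls, Cyp2e1 and Amy1 had the same order of the contralateral arrays as the fat markers. Cyp2e1, a cytochrome of liver and fat, was at 8.42, 9.87 and 7.44 in the contralateral arrays and 6.66, 5.93 and 6.43 in the DMM arrays (-2.24 ± 0.46, adjusted p = 0.0168). Amy1, an amylase gene with near-identical copies, was at 8.18, 9.02 and 7.51 in the contralateral arrays and 6.51, 6.58 and 6.96 in the DMM arrays (-1.55 ± 0.30, adjusted p = 0.0134). In both, contralateral replicate 2 was the highest array and replicate 3 the lowest of its group, the order of the adipocyte list. Cdo1, which breaks down cysteine, had no such spread: it was at 9.51, 10.03 and 9.91 in the contralateral arrays and 8.60, 8.14 and 8.72 in the DMM arrays (-1.33 ± 0.19, adjusted p = 0.00346). Rbp4, the carrier of retinol, fell from 9.47, 9.80 and 9.81 to 8.76, 8.26 and 8.72 (-1.11 ± 0.17, adjusted p = 0.00475), and the cellular retinoic acid carrier gene Crabp2 rose by 0.81 ± 0.13 (adjusted p = 0.00655). Dio2, which activates thyroid hormone, rose from 7.62, 7.39 and 8.02 to 8.84, 8.66 and 8.68 (1.05 ± 0.17, adjusted p = 0.00575), while the thyroid hormone receptor gene Thrb fell, at -0.59 ± 0.15 (adjusted p = 0.0399). Of 45 genes of oxidative stress and metal handling 4 rose (8.89%, against 4.07% of all genes) and none fell. The largest rise was that of the aldo-keto reductase gene Akr1b8, at 5.56, 5.57 and 5.60 in the contralateral arrays and 6.80, 6.90 and 6.68 in the DMM arrays (1.22 ± 0.13, adjusted p = 0.000953). Cdo1, Rbp4, Crabp2, Dio2 and Akr1b8 passed with each array left out. Cyp2e1 did not pass without DMM replicate 2 or 3, Amy1 without DMM replicate 1 or 2, and Thrb without any array except contralateral replicate 3. The oxidative stress list held 1 rise without DMM replicate 2 or 3, 2 without DMM replicate 1 or contralateral replicate 1, and 6 without contralateral replicate 3. Without contralateral replicate 2 the log2 fold change of Cyp2e1 was -1.59 (adjusted p = 0.00283) and that of Amy1 -1.16 (adjusted p = 0.0044). Contralateral replicate 2 was the highest of its group in 52.6% of all fallen genes. At 8 weeks the adipocyte list had a median of -0.58, while the log2 fold change of Amy1 was positive. The part of fat tissue in the falls of Cyp2e1 and Amy1 was not tested.

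Bcl2, the founding anti-apoptotic gene, was the 1 member called of 41 apoptosis genes (2.44% fallen, against 3.16% over all genes). It was at 9.09, 9.20 and 9.02 in the contralateral arrays and 8.01, 7.56 and 8.09 in the DMM arrays (-1.22 ± 0.16, adjusted p = 0.00276), 6 of its 8 probes were called, and it passed with every array left out. The cell cycle list gave 2 rises and 1 fall of 62 genes (1 rise and no fall without any 1 DMM array), shares below those over all genes. Small shifts upwards were more common: 47 of the 62 had a positive log2 fold change, with a median of 0.15. The list mean was 6.72, 6.72 and 6.71 in the contralateral arrays and 6.89, 6.86 and 6.84 in the DMM arrays. Ndrg2, a relative of Ndrg1, fell from 10.0, 9.93 and 9.84 to 8.77, 8.82 and 8.84 (-1.11 ± 0.12, adjusted p = 0.00132). Jag1, a Notch ligand, rose from 6.90, 6.70 and 6.77 to 7.46, 7.83 and 7.72 (0.88 ± 0.14, adjusted p = 0.00606). It was the 1 gene of 19 in the Notch list to be called (5.26% risen, against 4.07% over all genes). Both Ndrg2 and Jag1 passed with each array left out as well.

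Several general cell functions gave no call. None of 55 ribosomal protein genes (median 0.0), 43 respiratory chain genes (0.08), 38 chaperones and unfolded protein response genes (0.10), 36 proteasome genes (0.11), 22 cholesterol genes (-0.09) or 16 clock genes (-0.01) passed in limma. At an unadjusted p below 0.05 the counts were 5, 1, 7, 3, 4 and 3 in the same order, where 22.8% of all genes passed. Of the 75 lists other than the collagens and metalloproteinases, 11 held no call, 17 held rises only, 9 falls only and 38 both. Of the 831 called genes 348 belonged to a list. A gene below the threshold is not shown to be unchanged.

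**Figure D4:**
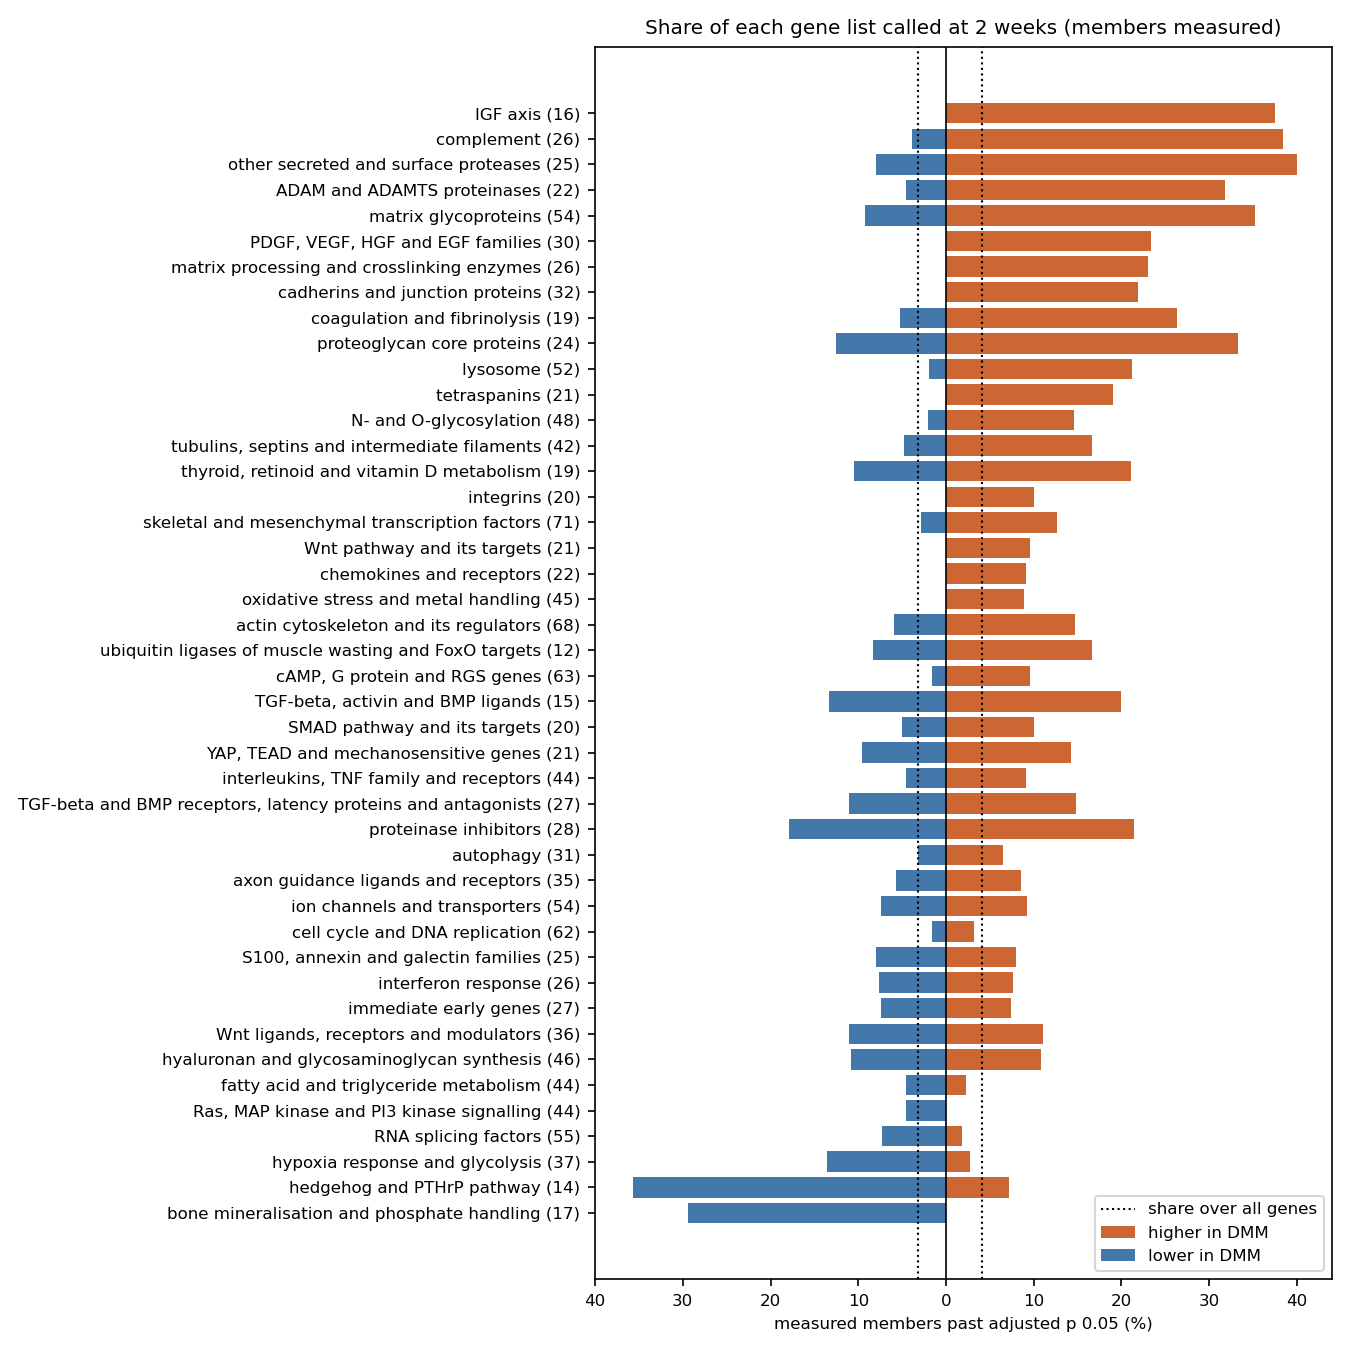
Share of the measured members that passed adjusted p 0.05, for pathway lists with 12 or more measured and more than 1 called, higher after DMM to the right and lower to the left, with the number measured in brackets and the share over all genes (4.07% and 3.16%) dotted. The IGF list, the list of complement genes and relatives and the protease list held the largest shares of rises, with 37.5% to 40.0%. Hedgehog and bone mineralisation lists held the largest shares of falls, with 35.7% and 29.4%. The rises of the complement list include C1qtnf1, C1qtnf2, C1qtnf3 and C1qtnf5, which are not complement components. The lists were chosen with earlier results of these data known, so the shares are descriptions only.

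Several probes to a gene allowed a check within the arrays. For the 399 called genes with more than 1 probe, 540 of the 653 other probes (82.7%) had the same sign as the brightest, against 64.8% of the other probes over all genes, and 200 were also called. Only Matn2, a matrilin that joins matrix fibrils, had probes called in opposite directions. Its brighter probe was at 9.58, 9.40 and 9.0 in the contralateral arrays and 8.42, 8.68 and 8.56 in the DMM arrays (-0.77 ± 0.17, adjusted p = 0.0204). Its dimmer probe was at 6.81, 6.18 and 6.36 against 7.44, 7.79 and 7.48 (1.12 ± 0.18, adjusted p = 0.00578). Both probes separated the groups completely, in opposite directions, so the direction of the gene is open. The counts read it by its brighter probe, which places it among the fallen genes and the falls of the matrix glycoprotein list. The brighter probe did not pass without contralateral replicate 1 or any 1 DMM array.

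The direction at 2 weeks was set beside the 4-week and 8-week arrays, which came from other mice. Of the 468 genes that rose at 2 weeks, 438 (93.6%) had a positive log2 fold change at 4 weeks, with a median of 0.44, and 391 (83.5%) at 8 weeks, with a median of 0.32. Of the 363 that fell, 342 (94.2%) were negative at 4 weeks, with a median of -0.39, and 331 (91.2%) at 8 weeks, with a median of -0.33. Over all genes, called or not, 63.2% had the same sign at 2 and 4 weeks and 59.6% at 2 and 8 weeks. Since the genes were chosen for passing at 2 weeks, their 2-week size may be inflated, and whether a smaller later value is a decline is not decided here. Called again at 4 weeks were 43 of the rises and 29 of the falls, and none at 8 weeks. A direct test of the difference between weeks called no probe, either for 4 against 2 weeks (1250 probes at an unadjusted p below 0.05, lowest adjusted p 0.813) or for 8 against 2 weeks (2419 probes, lowest adjusted p 0.102). For single genes the later values were, for example, -1.08 ± 0.21 at 4 and -0.90 ± 0.26 at 8 weeks for Hs3st3a1, 1.14 ± 0.21 and 1.19 ± 0.18 for Barx2, 0.63 ± 0.22 and 0.15 ± 0.32 for Ackr4, and 0.73 ± 0.24 and -0.20 ± 0.23 for Panx3. The neutrophil list, negative for all 16 members at 2 weeks, had medians of 0.75 at 4 weeks and -0.22 at 8 weeks, so that its sign did not persist.

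**Figure D5:**
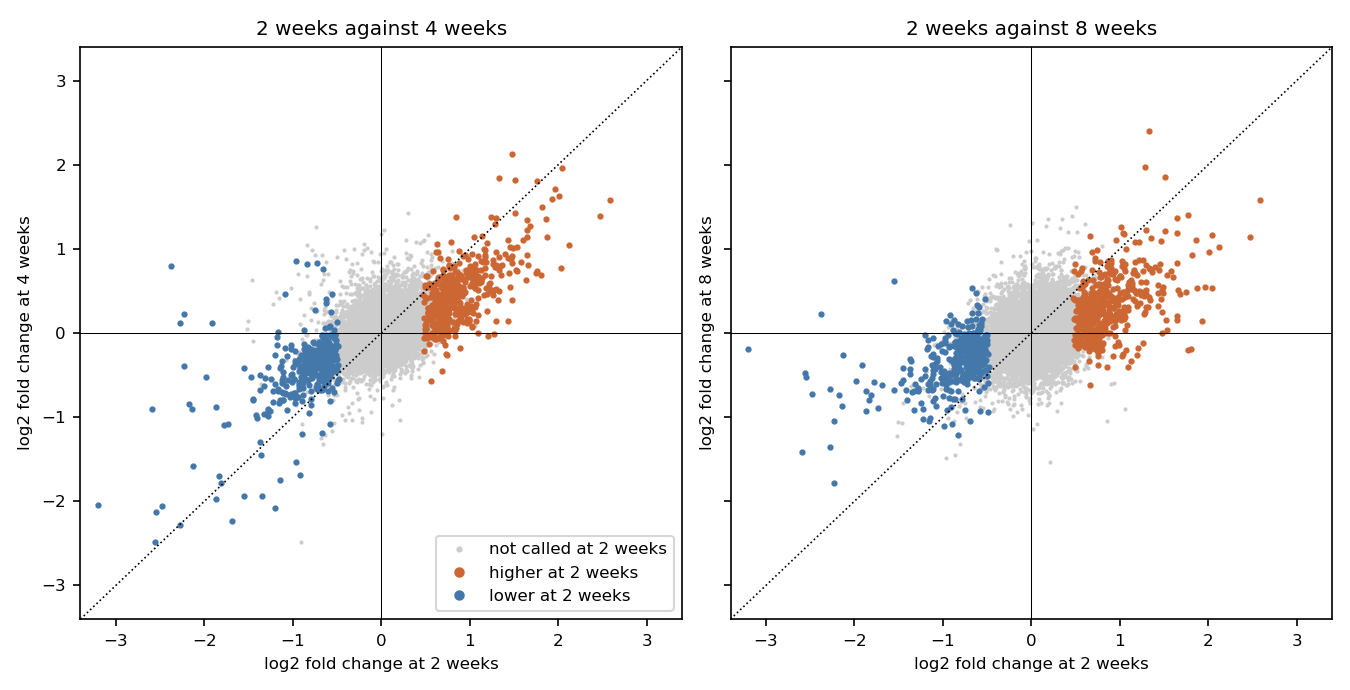
Log2 fold change of each gene at 2 weeks (horizontal) against that at 4 weeks (left) and 8 weeks (right), with genes called at 2 weeks coloured and the dotted line marking equal values. Of the genes that rose at 2 weeks 438 of 468 lay above 0 at 4 weeks and 391 at 8 weeks.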

How the data were processed

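Cartilage RNA was amplified and hybridised to Illumina bead arrays by the authors, who exported intensities from GenomeStudio, then selected probes, took logs and applied quantile normalisation over all 18 arrays in lumi 2.8.0 under R 2.15.0. The probe selection threshold, the chip each array lay on and the mice behind each pool were not given in the sources used here. The deposited values are log2 intensities, already normalised, and were used as deposited. A second, unnormalised table had 36 columns that match no sample and was not used here.

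The 3 DMM arrays and 3 contralateral arrays at 2 weeks were compared per probe with limma 3.58.1 (R 4.3.3, lmFit and eBayes, unpaired), with Benjamini-Hochberg adjustment over all 22999 probes and a threshold of 0.05. The platform annotation gave 1 gene for 18998 probes, several for 6 and none for 3995. A gene was read by its brightest probe over the 18 arrays, and only 1-gene probes name a gene. Arrays are pools labelled as separate samples, so p-values measure the spread between pools, and 3 arrays a group limit the precision. The differences between weeks were tested as interactions in 1 limma fit of all 18 arrays.

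Members were counted in 77 hand-written gene lists (58 of pathways, 17 of cell types, and collagens and metalloproteinases, which were left out), described by counts and medians with no set test. Lists and members were chosen with earlier results of these data known. A gene could belong to more than 1 list, so the counts of different lists are not independent. Genes named were the 25 largest rises and 25 largest falls outside collagens, metalloproteinases and muscle, up to 4 risen and 4 fallen members of each list, the first 4 measured members of each list, genes the study names at 2 weeks, and genes with probes called in opposite directions, 504 in all, of which 281 were called. Alternatives were each array left out, quantile normalisation repeated on the 2-week arrays, cyclic loess, 1 fit of all arrays and a block for the replicate number. Further ones were an intensity trend, weighted arrays, the brighter probes alone, a fold minimum and the mean of a gene's probes. The fit was tested on simulated data. Promoter windows came from RefSeq (GRCm38.p6).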

Additional observations from a re-analysis of the deposited data

Results flagged for a closer look

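The 3 genes Amy1, Kcne4 and Thrb, called at 2 weeks, had arrays that lay fully apart in the opposite direction at 8 weeks. Amy1 changed by -1.55 at 2 weeks and by 0.62 at 8 weeks, a difference of 2.17 (adjusted p = 0.102 in limma). For Kcne4, a potassium channel subunit, the values were 0.85 and -0.40, a difference of -1.26 (adjusted p = 0.102). For Thrb, a thyroid hormone receptor, they were -0.59 and 0.31, a difference of 0.89 (adjusted p = 0.168). None of the 3 differences passed the threshold. The 2-week call failed for Amy1 without DMM replicate 1 or 2, for Kcne4 without contralateral replicate 3 or any 1 DMM array, and for Thrb without any array except contralateral replicate 3. Groups of 3 arrays were not tested for single outlying values.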

How the results depend on the processing

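The 1525 probes, 468 risen and 363 fallen genes at 2 weeks stayed within 1.5 times under cyclic loess normalisation and the fit of all 18 arrays. The same was true of the intensity trend, array weights, the brighter probes and the mean of a gene's probes. Quantile normalisation of the 2-week arrays alone gave the same 1525, 468 and 363. The deposited values were already quantile normalised, so this setting could change almost nothing and is no check. With each array left out the probes ranged from 390 to 1574, risen genes from 143 to 459 and fallen genes from 109 to 416, lowest without DMM replicate 2 and, for probes, highest without contralateral replicate 3. Requiring a log2 fold over 0.5 left 59 probes, 15 risen and 24 fallen genes. The replicate block gave 1414 probes, 413 risen and 353 fallen genes. The replicate numbers were not taken to pair the arrays, since the labels do not say which pools share mice. Deviations of same-numbered arrays correlated at -0.10, -0.02 and 0.10 at 2 weeks. They correlated at 0.13, 0.06 and 0.07 at 4 weeks and at -0.02, -0.03 and -0.09 at 8 weeks. With 3 arrays a group these values cannot decide whether the numbers pair the pools. The difference between 8 and 2 weeks called 0 probes, with a range of 0 to 3 when an array was left out, the 3 appearing without 2-week DMM replicate 1. Of the 281 named genes called, 30 kept the call under every alternative run, among them Grem1, Ackr4, Hs3st3a1, Hs3st3b1, Cytl1, Ucma, Bmp5, Lgr6, Barx2, Panx3, Piezo2, Sdc1 and Akr1b8. Over all these genes and alternatives, 3277 values kept direction and call, 912 kept the direction only and 1 reversed: Matn2 was at 0.17 with the mean of its probes, whose opposite signs are given above. These counts include the repeated quantile normalisation. The cause of the other changes was not tested. Values bottomed out at 4.62, so that falls of dim genes have a limited range.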

Other observations

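Other gene groups held single stable members, named by the same rule. Ntn4, a netrin of basement membranes, fell from 9.45, 9.22 and 9.58 to 8.40, 8.19 and 8.56 (-1.04 ± 0.15, adjusted p = 0.00395 in limma) with both probes called. The axon guidance list of 35 genes gave 3 rises and 2 falls (8.57% and 5.71%, against 4.07% and 3.16% of all genes), and no rise without any 1 DMM array. Prkg1, the cGMP-dependent kinase I, fell from 9.22, 9.56 and 9.63 to 8.73, 8.21 and 8.50 (-0.99 ± 0.17, adjusted p = 0.00749). Sphk1, which makes sphingosine 1-phosphate, rose from 6.05, 5.53 and 6.13 to 6.90, 7.18 and 7.01 (1.13 ± 0.17, adjusted p = 0.00475), while its dimmer probe was not called (-0.12 ± 0.13, adjusted p = 0.642). In these 3 genes the groups did not overlap and the call passed with every array left out. Among 54 channels and transporters, 5 rose and 4 fell (9.26% and 7.41%, against 4.07% and 3.16% of all genes), and 2 rises and 1 fall passed without DMM replicate 2 or 3. Ano1, a calcium-activated chloride channel, rose by 0.90 ± 0.14 (adjusted p = 0.00574) and Aqp1, a water channel, from 11.81, 11.44 and 11.74 to 12.37, 12.61 and 12.48 (0.83 ± 0.15, adjusted p = 0.00858) with all 3 probes called. Aqp1 did not pass without DMM replicate 2, and Ano1 passed with every array left out.

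Among nuclear regulators, chromatin genes were called less often than all genes, while splicing factors fell more often. Of 61 chromatin regulators Hdac9, a class IIa histone deacetylase, was the 1 called (1.64% fallen, against 3.16% over all genes). It fell from 7.48, 7.49 and 7.84 to 6.85, 6.59 and 6.53 (-0.94 ± 0.15, adjusted p = 0.00605). Of 55 splicing factors Celf2 rose from 8.17, 8.55 and 8.19 to 9.15, 9.41 and 9.42 (1.02 ± 0.15, adjusted p = 0.00427) with both probes called, and 4 fell (7.27%, against 3.16% of all genes). Both Hdac9 and Celf2 passed with every array left out, whereas the splicing list held no fall without DMM replicate 2 or 3, 1 without DMM replicate 1 or contralateral replicate 1 and 2 without contralateral replicate 3. Gcnt1, which branches O-linked sugars, rose by 0.81 ± 0.14 (adjusted p = 0.0073), 1 of 7 rises among 48 glycosylation genes (14.6%, against 4.07% of all genes). That count was 3, 1 and 2 without DMM replicates 1, 2 and 3, while Gcnt1 itself passed with every array left out.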
